A study of Homo sapiens with 9 samples.

Results

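The DLX homeobox genes were followed through the differentiation of human embryonic stem cells (hESC) towards progenitors of the inner ear (otic progenitors). The family was taken as DLX1 to DLX6, and its members were found as every probe set whose platform annotation names only one of these genes. This gave 11 probe sets for 6 genes, out of 19775 genes on the arrays, and no probe set named a DLX gene together with another gene. Where a gene had several probe sets, the brightest of them by its mean over all 9 arrays served as the main one. The main probe sets were 242138_at for DLX1, 207147_at for DLX2, 231778_at for DLX3, 208216_at for DLX4, 213707_s_at for DLX5 and 242940_x_at for DLX6.

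Undifferentiated and differentiated cells of 3 established hESC lines, Shef3, H14 and Shef1, were hybridised to Affymetrix arrays, 1 array per line in each of 3 groups. The FGF3+10 group had been kept for 14 days on laminin in DFNB, a DMEM and F12 mixture with N2 and B27 supplements, to which the growth factors FGF3 and FGF10 were added at 50 ng/ml each. The DFNB group had been kept for 14 days in the same medium on laminin without them. The hESC group was taken at day 0 from cultures grown on feeder cells (mouse embryonic fibroblasts), with serum replacement and basic FGF at 4 ng/ml in the medium. Both day 14 groups thus also differ from hESC in substrate, medium and feeders, and a p-value measures the spread between single arrays of 3 lines.

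The DLX genes encode homeodomain transcription factors related to Distal-less of Drosophila, and in mammals they lie as neighbouring pairs in the genome. DLX5, DLX6 and DLX3 are known from the border of the neural plate, where the preplacodal region gives rise to the sensory placodes, and mice without Dlx5 form a defective inner ear. DLX1 and DLX2 are best known from GABAergic neurons of the forebrain and from the pharyngeal arches, DLX3 also from epidermis and placenta, and DLX4 from placenta.

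In the GRCh38.p14 annotation, DLX1 lies on chromosome 2 from 172085507 to 172089674 and DLX2 from 172099438 to 172102900, with 9763 bases between them. DLX6 lies on chromosome 7 from 97005553 to 97011040 and DLX5 from 97020396 to 97024831, with 9355 bases between them. DLX4 lies on chromosome 17 from 49968572 to 49974959 and DLX3 from 49990005 to 49995224, with 15045 bases between them. The gene of the antisense RNA DLX6-AS1, at 96968515 to 97014065 on chromosome 7, spans DLX6.

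Promoter windows from RefSeq, build GRCh38.p14, matched 3 of the 6 members, and DLX3, DLX4 and DLX5 had no match. The windows run from 250 bases before the annotated start to 50 bases after it and are written 5′ to 3′. That of DLX6 is shown because its gene had the largest change of the family at day 14, that of DLX2 because its gene had the next largest of those matched, and that of DLX1 because it neighbours DLX2. Capitals mark matches on either strand to the CCAAT box (CCAAT), the GC box (GGGCGG) and the cyclic AMP response element (TGACGTCA), which did not overlap in these windows.
DLX6, chr7:97005303-97005602, + strand: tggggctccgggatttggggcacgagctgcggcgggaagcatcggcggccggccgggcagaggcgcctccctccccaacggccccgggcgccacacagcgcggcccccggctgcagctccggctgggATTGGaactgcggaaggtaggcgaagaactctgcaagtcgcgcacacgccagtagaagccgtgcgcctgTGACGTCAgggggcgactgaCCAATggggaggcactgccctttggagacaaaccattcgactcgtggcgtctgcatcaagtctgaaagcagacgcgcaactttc
DLX2, chr2:172102851-172103150, - strand: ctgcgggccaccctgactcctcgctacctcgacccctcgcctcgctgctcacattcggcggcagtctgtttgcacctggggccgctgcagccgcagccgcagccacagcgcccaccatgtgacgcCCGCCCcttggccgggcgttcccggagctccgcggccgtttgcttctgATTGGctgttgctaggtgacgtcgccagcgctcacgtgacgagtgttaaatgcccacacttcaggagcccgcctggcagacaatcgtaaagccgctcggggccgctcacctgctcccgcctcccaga
DLX1, chr2:172085257-172085556, + strand: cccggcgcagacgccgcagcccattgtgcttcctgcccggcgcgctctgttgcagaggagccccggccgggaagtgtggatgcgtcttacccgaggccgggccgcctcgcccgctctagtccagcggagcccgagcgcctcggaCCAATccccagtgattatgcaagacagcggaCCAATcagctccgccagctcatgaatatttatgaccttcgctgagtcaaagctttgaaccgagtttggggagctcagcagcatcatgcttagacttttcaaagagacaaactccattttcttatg

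The CCAAT box matched in all 3 windows, with 2 matches for DLX6, 1 for DLX2 and 2 for DLX1, and in 34.6% of the 35116 windows of the table. The GC box matched once in DLX2 and in 45.0% of all windows. The cyclic AMP response element matched once in DLX6, at -54 to -47 relative to the start, and in 1.85% of all windows. Neither TATAAA nor the homeodomain core TAATTA matched in any of the 3, against 11.5% and 4.84% of all windows. The GC content was 67.0% for DLX6, 67.7% for DLX2 and 59.0% for DLX1, against a median of 58.7% over the table. A match describes these letters only, and no binding was measured.

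Values were deposited as logarithms, read here as log2 although no source used here states their base, and every array has a median of 3.20. A level is such a value, and a difference of 1 is a factor of 2 if the base holds. No detection calls were used, so the level of 4 serves as a rough bound below which values are noisy. On the whole series, the mean signal of the poly-A spike-ins, bacterial RNAs added before labelling, lay between 7.43 and 7.50 on the Shef1 arrays and between 5.04 and 5.72 on those of the other lines, so line and this difference in spike-ins cannot be told apart. Pluripotency markers, known from undifferentiated hESC, averaged 8.97 and 8.73 on the FGF3+10 and DFNB arrays of Shef1, against 9.32 on its hESC array. The FGF3+10 and DFNB arrays of Shef3 averaged 3.51 and 3.64, against 11.15 for its hESC array. On them 6 and 7 of the 9 markers still reached 4, and NANOG, at -7.62 and -10.17, pulled the mean down. The median change of the markers at day 14 was -5.21 in Shef3. The FGF3+10 and DFNB arrays of H14 averaged 9.18 and 7.52, against 10.67. The Shef1 arrays of day 14 thus lay close to their day 0 level in these markers, and the values of each DLX gene are also given by line.

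DLX5 and DLX6, the neighbouring pair on chromosome 7, rose at day 14 and were higher than hESC in every line and in both media. In Shef3, however, both genes stayed under the level of 4 on each array. The mean of the FGF3+10 and DFNB groups exceeded hESC by 3.31 ± 0.61 log2 units for DLX5 and by 3.41 ± 0.56 for DLX6 (SE, 6 and 3 arrays). The 6 day 14 arrays come from 3 lines, each in both media, and this SE takes them as independent. These were the 2 of 6 members that passed in limma at day 14 (adjusted p = 0.0447 and 0.0343), where 1.4% of all genes passed and 0.759% passed upwards. At an unadjusted p below 0.05 DLX2 was higher too, making 3 of 6 members against 6.6% of genes. DLX2 and DLX3 were higher on average without passing, and DLX1 and DLX4 showed no common direction. Between FGF3+10 and DFNB, 0 of 6 members passed.

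DLX5, a factor of the preplacodal region, the jaw and the limb, had levels of 3.64, 6.34 and 4.07 in FGF3+10, in the order Shef3, H14 and Shef1. In DFNB they were 3.26, 4.66 and 4.39, against 0.73, 1.45 and 1.07 in hESC. All 6 arrays of day 14 lay above all 3 hESC arrays, and H14 with FGF3 and FGF10 was the highest. Groups failed to overlap upwards in this way for 2 of 6 members, DLX5 and DLX6, against 4.23% of all genes.

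Set against hESC alone, DLX5 was 3.61 ± 0.70 higher in FGF3+10 (SE, n = 3 and 3 arrays, adjusted p = 0.0965) and 3.02 ± 0.70 higher in DFNB (adjusted p = 0.112). With the cell line as replicate block these reached adjusted p = 0.0445 and 0.04997, and the day 14 value 0.0227, where 3.09% of all genes passed. The difference within lines was 2.92 in FGF3+10 and 2.54 in DFNB for Shef3, 4.90 and 3.22 for H14, and 3.0 and 3.31 for Shef1. DLX5 thus differed from hESC by similar amounts in Shef1, whose pluripotency markers stayed high, and in Shef3, where the mean of these markers fell. There is 1 array per line and medium, and the Shef3 levels of DLX5 lay under 4. A relation between DLX5 and these markers was not tested.

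DLX6, which acts with DLX5 in the lower jaw and the limb, had levels of 2.98, 5.50 and 3.90 in FGF3+10 for Shef3, H14 and Shef1. In DFNB they were 2.76, 3.38 and 4.29, against 0.67, 0.21 and 0.29 in hESC. The day 14 and hESC arrays did not overlap, and the 3 hESC arrays had an SD of 0.24. DLX6 was 3.74 ± 0.64 higher in FGF3+10 (SE, n = 3 and 3, adjusted p = 0.0721) and 3.09 ± 0.64 higher in DFNB (adjusted p = 0.0886). With the block the values were 0.0685 and 0.0728, and 0.0346 for day 14.

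The DLX6 values come from 3 probe sets. The main one, 242940_x_at, belongs to a class whose probes may match other sequences too. The probe set 239309_at gave a day 14 difference of 2.92 ± 0.82 (adjusted p = 0.162 over all probe sets), with levels of 3.20, 5.45 and 2.47 in FGF3+10 and 2.32, 2.78 and 3.05 in DFNB, against 0.84, 1.63 and -1.60 in hESC. The third, 221289_at, gave 0.96 ± 0.78 and overlapped between groups, with 3.32 in hESC of H14. All 3 day 14 differences were thus positive, and 239309_at separated the groups as the main one did. However, 239309_at reached the level of 4 on 1 of 9 arrays and 221289_at on 0 of 9. With values below 4 raised to 4, the day 14 difference of 239309_at in limma was 0.24 (adjusted p = 0.710 over all probe sets). The antisense RNA DLX6-AS1 ranged from -0.64 to 2.39 over the 9 arrays and so lay below 4 on each.

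In the fit over all 54613 probe sets, the main DLX6 probe set was the 1 of 11 to pass at day 14 (adjusted p = 0.0477), where 0.478% of probe sets passed. DLX5, with a single probe set, had an adjusted p of 0.0653 there, and of 0.0290 with the block, where 2 of 11 passed against 1.32% of probe sets. Both calls involve levels under 4, on the hESC arrays and also on some day 14 arrays, among them those of Shef3 in both media. With all such values raised to 4, the day 14 difference was 0.58 for DLX5 (adjusted p = 0.518) and 0.30 for DLX6 (0.625), where 4 and 2 of the 9 arrays reached 4.

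**Figure D1:**
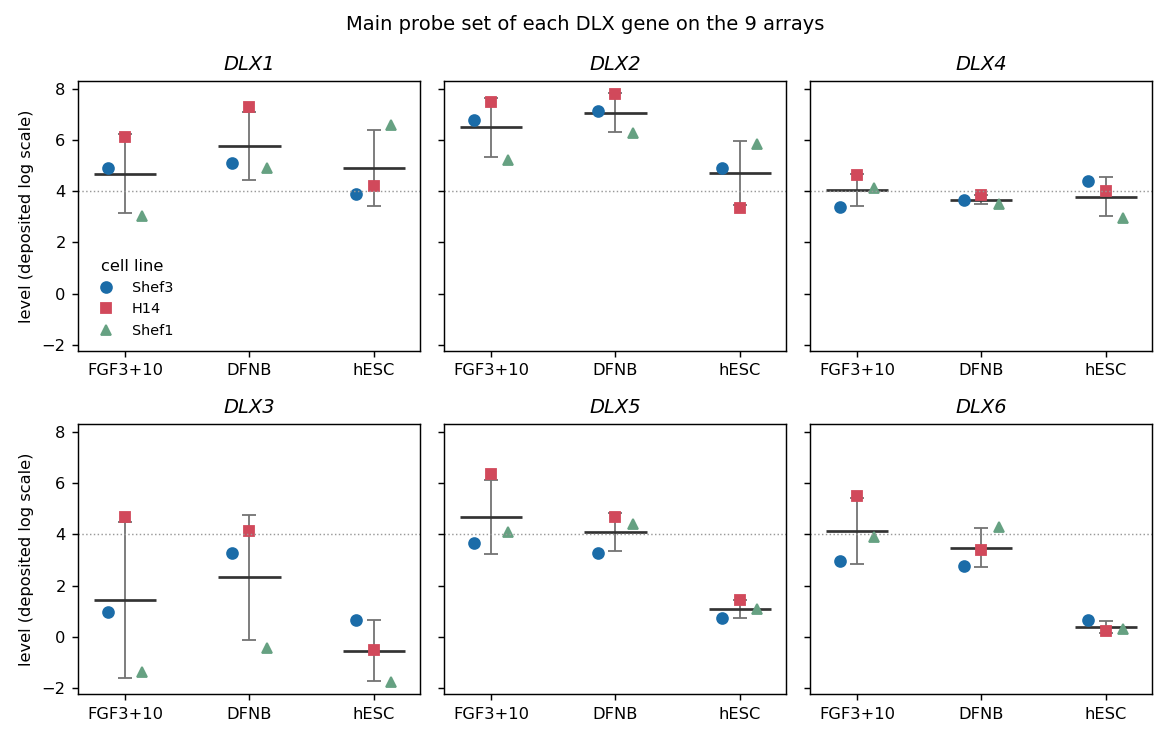
Level of the main probe set of each DLX gene (vertical axis, deposited log scale) in the FGF3+10, DFNB and hESC groups, with 1 point per cell line, the mean as a bar, the SD as whiskers and a dotted line at 4. DLX5 and DLX6 lie higher on all 6 arrays of day 14 than on the 3 hESC arrays, and for the other members the day 14 and hESC arrays overlap.

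Leaving out arrays ended these calls in most cases, in fits with fewer arrays. Without any one line the day 14 difference stayed between 2.94 and 3.61 for DLX5 and between 3.0 and 4.02 for DLX6, and neither passed. The same held without any single hESC or DFNB array (adjusted p from 0.0623 to 0.147 for DLX5 and from 0.0503 to 0.127 for DLX6). Without the FGF3+10 array of Shef3, or that of Shef1, DLX6 alone passed, and without that of H14 both did.

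DLX2, a factor of forebrain interneurons and pharyngeal arches, was higher at day 14 in both media in Shef3 and H14, but only in DFNB in Shef1. Its levels were 6.76, 7.50 and 5.21 in FGF3+10 for Shef3, H14 and Shef1. In DFNB they were 7.15, 7.78 and 6.27, against 4.90, 3.35 and 5.83 in hESC. The DFNB and hESC arrays did not overlap, whereas the FGF3+10 array of Shef1 lay below the hESC array of the same line.

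DLX2 was 1.79 ± 0.78 higher in FGF3+10 (SE, n = 3 and 3, adjusted p = 0.408), 2.37 ± 0.78 in DFNB (0.214) and 2.08 ± 0.67 at day 14 (0.165). Averaged over media, Shef3 differed from its hESC array by 2.05, H14 by 4.28 and Shef1 by -0.09. The group difference was 3.17 without Shef1 (adjusted p = 0.0764) and 0.98 without H14 (0.743). With array weights it was 3.06 and passed (adjusted p = 0.0281), and with the mean of both probe sets it was 0.93 (0.487). The second probe set, 215685_s_at, stayed below 4 on all 9 arrays and gave -0.22 ± 1.00, so the probe sets of DLX2 disagree in sign.

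DLX1, the neighbour of DLX2, had levels of 4.91, 6.11 and 3.04 in FGF3+10 and of 5.10, 7.29 and 4.90 in DFNB, against 3.88, 4.21 and 6.59 in hESC. Its highest hESC level was in Shef1, where both arrays of day 14 were lower. Over both media Shef3 differed from hESC by 1.12, H14 by 2.49 and Shef1 by -2.62. The group difference at day 14 was 0.33 ± 0.88 (adjusted p = 0.877), with a 95% interval from -1.69 to 2.35. The other probe set, 1560100_at, lay below 4 on all arrays and gave -0.85 ± 0.95.

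DLX3, a factor of surface ectoderm, epidermis and placenta, was highest in H14 at day 14. It had levels of 0.98, 4.66 and -1.38 in FGF3+10 for Shef3, H14 and Shef1. In DFNB they were 3.29, 4.12 and -0.45, against 0.65, -0.53 and -1.75 in hESC. All 6 arrays of day 14 were higher than hESC of their own line, but the groups overlapped, and 2 of 9 arrays reached 4.

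DLX3 was 1.96 ± 1.63 higher in FGF3+10 (adjusted p = 0.665), 2.86 ± 1.63 in DFNB (0.419) and 2.41 ± 1.41 at day 14 (0.401). With values below 4 raised to 4 these were 0.22, 0.041 and 0.13, and without H14 they were 0.35, 1.97 and 1.16. With the block the day 14 standard error fell to 0.83, against 1.41 without it, and the adjusted p was 0.153. The day 14 difference was 4.92 in H14, 1.48 in Shef3 and 0.84 in Shef1. Markers of surface ectoderm and epidermis averaged 7.47 in FGF3+10 and 7.71 in DFNB of H14, against 6.01 in its hESC array, and between 5.46 and 6.42 on the other day 14 arrays. Their part in the DLX3 values was not tested.

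DLX4, the neighbour of DLX3 and known from placenta, varied least. Its levels were 3.39, 4.65 and 4.13 in FGF3+10 and 3.67, 3.83 and 3.48 in DFNB, against 4.39, 4.02 and 2.94 in hESC. The 3 groups overlapped, and the day 14 difference was 0.07 ± 0.40 with an interval from -0.84 to 0.98. The interval leaves out changes of the size seen for DLX5. The second probe set, 210259_s_at, gave 0.77 ± 0.42 at levels below 4. Trophoblast markers averaged 0.88 to 2.78 in FGF3+10 and 1.49 to 3.21 in DFNB, against 0.97 to 2.22 in hESC.

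**Figure D2:**
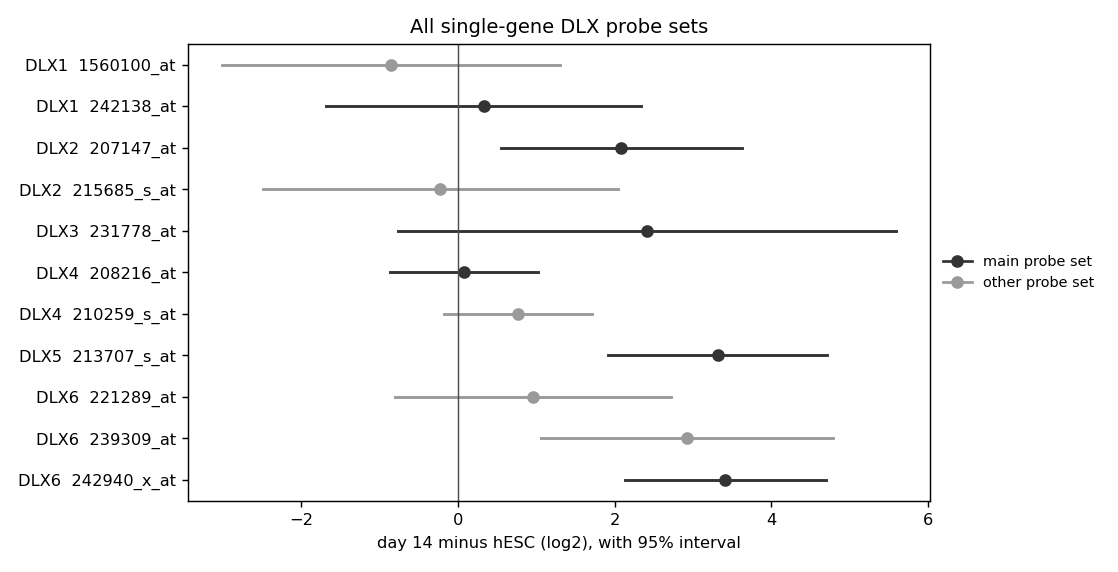
Day 14 minus hESC (horizontal axis, log2) for all 11 DLX probe sets, with 95% intervals from limma over all probe sets, main probe sets dark and the others grey. The intervals of DLX5, of the DLX2 main probe set and of 2 DLX6 probe sets lie above 0, and that of the second DLX2 probe set spans 0.

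Counted over the family against hESC, 0 of 6 members passed over all genes in FGF3+10, where 0.177% of genes passed, and 0 of 6 in DFNB, where 0.202% did. With the block it was 1 of 6 in each, DLX5, against 0.582% and 0.956% of genes. At an unadjusted p below 0.05, DLX2, DLX5 and DLX6 were higher in each, which was 3 of 6 members against 4.52% of genes in FGF3+10 and 6.11% in DFNB. Groups did not overlap for 2 of 6 members in FGF3+10, both higher, against 5.68% of genes higher. They did not overlap for 3 of 6 in DFNB, again all higher, against 7.8% of genes.

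The median difference of the members was 1.88 in FGF3+10 and 2.62 in DFNB, beside -0.19 over all genes in each. Since FGF3+10 and DFNB were set against the same hESC arrays, these counts are not independent of each other. Over day 14 as a whole, DLX3, DLX5 and DLX6 were higher than hESC in all 3 lines and both media, or 3 of 6 members, against 9.56% of genes. As the arrays are of bulk cultures, more cells with DLX RNA and more RNA per cell cannot be told apart.

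The comparison of FGF3+10 with DFNB asks what the added factors changed. No member passed, at an adjusted p of 1.000 for each, and 0% of all genes did. At an unadjusted p below 0.05 it was 0 of 6 members and 1.52% of genes. Differences ran from -1.07 ± 1.02 for DLX1 to 0.65 ± 0.64 for DLX6, with intervals from -3.40 to 1.25 and from -0.81 to 2.11. For DLX5 the difference was 0.58 ± 0.70, with an interval from -1.01 to 2.18. For DLX2 and DLX3 the intervals ran from -2.35 to 1.19 and from -4.61 to 2.81. In this model without the block, the intervals thus still hold changes of more than 2 units for several members. These are downwards for DLX1, DLX2 and DLX3 and upwards for DLX3, DLX5 and DLX6. With the cell line as block the intervals ran from -3.58 to 1.43 for DLX1 and from -0.84 to 2.14 for DLX6. Those of DLX2 and DLX3 then ran from -2.63 to 1.47 and from -3.21 to 1.41. That of DLX5 ran from -0.54 to 1.71 and so stayed below 2.

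Within lines, DLX5 and DLX6 were 1.68 and 2.12 higher with FGF3 and FGF10 in H14, 0.38 and 0.22 higher in Shef3, and 0.31 and 0.39 lower in Shef1. Without the FGF3+10 array of H14 the group differences were -0.25 for DLX5 and -0.04 for DLX6. Without the whole H14 line they were 0.034 and -0.085. H14 thus had the largest difference of the 3 lines for this pair, and Shef3 and Shef1 differed in sign. DLX2 was lower with the factors in all 3 lines, by 0.39, 0.28 and 1.07 in Shef3, H14 and Shef1, and so was DLX1, by 0.19, 1.18 and 1.86. These were 2 of 6 members lower in every line, against 12.5% of genes.

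**Figure D3:**
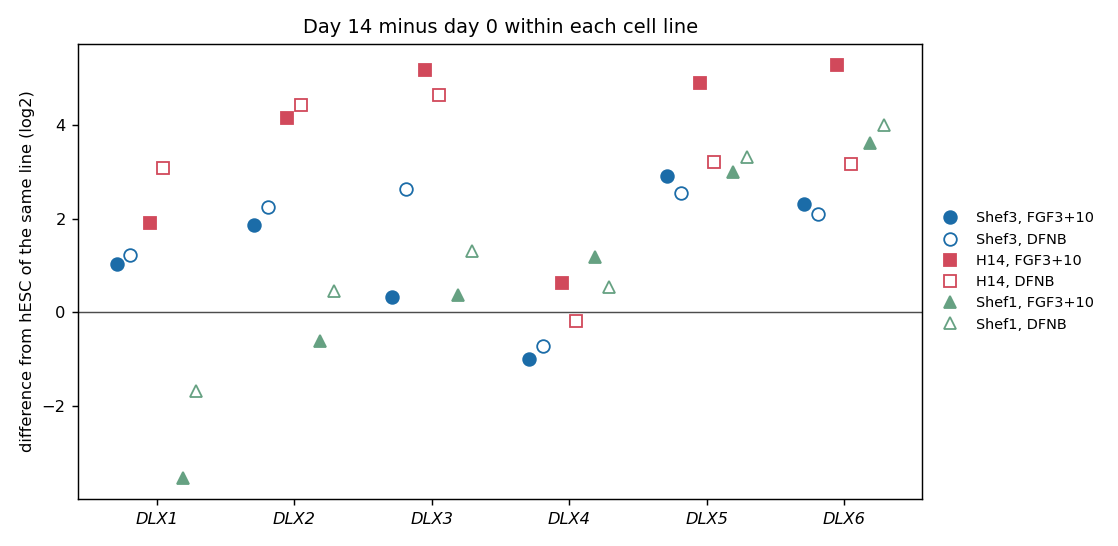
Difference of each day 14 array from the hESC array of the same line (vertical axis, log2) for the main probe set of each DLX gene, with filled symbols for FGF3+10 and open symbols for DFNB. DLX5 and DLX6 lie between 2.09 and 5.29 in every line and medium, and DLX1 lies above 0 in Shef3 and H14 and below 0 in Shef1.

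Among lines at day 14, H14 had the highest level of all 6 members in FGF3+10, where it was the highest of the 3 arrays for 34.5% of all genes. In DFNB it was the highest for 5 of 6 members, all but DLX6, against 33.9% of genes. In hESC it was the highest for DLX5 alone, against 39.0% of genes. The moderated F test for lines, in a model of group and line, passed for 0 of 6 members, against 0.46% of all genes. At an unadjusted p below 0.05 it held for DLX3 and DLX5, or 2 of 6, against 20.3% of genes, with adjusted p of 0.152 and 0.210.

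By mean level within each gene, DLX5 and DLX6 were highest in FGF3+10, at 4.69 ± 1.45 and 4.13 ± 1.28, then in DFNB, at 4.10 ± 0.74 and 3.48 ± 0.77, and lowest in hESC, at 1.08 ± 0.36 and 0.39 ± 0.24 (SD, n = 3 arrays). DLX2 and DLX3 were highest in DFNB, at 7.07 ± 0.76 and 2.32 ± 2.43, then in FGF3+10, at 6.49 ± 1.17 and 1.42 ± 3.04, and lowest in hESC, at 4.69 ± 1.25 and -0.54 ± 1.20. For DLX1 the means were 4.69 ± 1.55 in FGF3+10 and 5.76 ± 1.32 in DFNB, against 4.90 ± 1.48 in hESC, and for DLX4 4.06 ± 0.63 and 3.66 ± 0.18, against 3.79 ± 0.75. FGF3+10 and DFNB, next to each other in this order for DLX2, DLX3, DLX5 and DLX6, overlapped for all 6 members. Within groups the spread was widest for DLX3, with an SD of 2.36, and narrowest for DLX4, with 0.58.

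Genes known to act around DLX factors were counted by list. Some genes are in several lists, so the counts and medians of the lists are not independent. Of 16 measured preplacodal and border factors, 2 rose and 0 fell at day 14, with a median of 1.35 beside -0.19 over all genes, and 5 rose with the block. Over all genes 0.759% rose, and 1.6% with the block, and these shares apply to each list below. EYA2, a transcriptional cofactor of the preplacodal region, rose by 4.39 ± 0.69 (adjusted p = 0.0311), with 5.27 ± 1.41 in FGF3+10 and 5.60 ± 1.30 in DFNB, against 1.05 ± 0.21 in hESC. It was higher by 4.92 in Shef3, 5.17 in H14 and 3.07 in Shef1. TFAP2A, a factor of the neural plate border, rose by 2.61 ± 0.50 (0.0481), with 9.11 ± 0.87 and 8.96 ± 0.49 in FGF3+10 and DFNB, against 6.43 ± 0.88 in hESC, and was higher by 2.82, 2.32 and 2.68 in these lines.

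Shef3, H14 and Shef1 had median changes over the list of 1.47, 0.37 and 1.94, whereas its mean level was highest in H14 in FGF3+10, at 6.77 against 6.60 in Shef3 and 6.10 in Shef1. In DFNB the mean level was 6.98, 6.62 and 6.45 in the order Shef3, H14 and Shef1, against 5.04, 5.68 and 4.72 in hESC. H14 thus began at the highest level of the list and changed least.

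Of 12 measured otic factors 2 rose and 0 fell, with a median of 0.57, or 0.03 with values below 4 set to 4, and 3 rose with the block. TBX2, a T-box factor of the otic vesicle, rose by 3.23 ± 0.48 (adjusted p = 0.0270), and NR2F1, a nuclear receptor of the developing ear and brain, by 2.32 ± 0.40 (0.0380). TBX2 was higher by 4.23, 2.76 and 2.71 in Shef3, H14 and Shef1, and NR2F1 by 3.39, 1.6 and 1.97. The list's median was 0.27, 0.088 and 1.03 in these lines.

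Of 15 BMP ligands and targets 1 rose and 0 fell, with a median of 0.36, and 2 rose with the block. That gene was BMP7, a BMP ligand, which rose by 1.80 ± 0.31 (0.0372), with 7.51 ± 0.38 in FGF3+10 and 7.78 ± 0.04 in DFNB, against 5.84 ± 0.56 in hESC. It was higher by 2.14, 1.39 and 1.89 in Shef3, H14 and Shef1, where the list's median was 0.18, 0.37 and 0.67. BMP signalling is a known inducer of DLX genes at the neural plate border.

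Of 17 genes of the forebrain GABAergic programme 1 rose and 0 fell, and the median was -0.33, or 0.00 with values below 4 raised to 4. By line the median was -0.80, -0.31 and 0.011 in the same order. MEIS2, a homeodomain partner of DLX factors there and in other tissues, rose by 2.42 ± 0.34 (adjusted p = 0.0260) and was higher by 2.73, 2.50 and 2.04. The genes of GABA synthesis, GAD1 and GAD2, chosen after their values were seen, ranged from 3.25 to 5.88 and from 2.51 to 4.02 over the 9 arrays.

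Of 18 pharyngeal arch and skeletal genes none passed, with a median of 0.67, or 0.25 with values below 4 raised to 4, and 1 rose with the block. The medians by line were 0.57, 0.59 and 0.36. At an unadjusted p below 0.05, 5 of the 18 were higher and 1 lower, against 18.2% of all genes in either direction. NKX3-2 and PRRX2, factors of skeletal and arch mesenchyme, had the largest differences, of 2.90 ± 1.12 and 2.84 ± 1.49 (adjusted p = 0.229 and 0.353). In Shef3, H14 and Shef1 they were 1.90, 3.88 and 2.93 for NKX3-2, and 5.61, 3.41 and -0.48 for PRRX2.

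Markers of cell types that the cultures could hold were counted in the same way. Of 11 neural progenitor markers 2 rose, SIX6 by 6.75 ± 0.92 and SIX3 by 6.58 ± 1.24, both eye field and forebrain factors (adjusted p = 0.0244 and 0.0472), and 3 rose with the block. SIX6 was higher by 6.86, 5.64 and 7.75 in Shef3, H14 and Shef1, and SIX3 by 8.87, 3.83 and 7.05. The list's median was 1.63, or 1.04 with values below 4 raised to 4. The mean of the 11 was 6.37 to 8.21 in FGF3+10 and 4.97 to 7.67 in DFNB, against 3.83 to 4.73 in hESC. Mesenchyme markers averaged 6.68 to 9.35 and 8.09 to 9.84 at day 14, against 7.85 to 7.98 in hESC, and neural crest markers 5.03 to 6.04 and 5.55 to 6.08, against 5.15 to 6.01. None of the 9 pluripotent, 9 neural crest, 12 surface ectoderm, 14 trophoblast and 12 mesenchyme markers passed at day 14. With the block 1 neural crest marker passed, TFAP2B, which also counts among the preplacodal and border factors. At an unadjusted p below 0.05, 2 pluripotent and 3 surface ectoderm markers were lower, 1 neural crest and 2 mesenchyme markers were higher, and 1 trophoblast marker lay each way. The share over all genes in either direction was 18.2%.

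The largest day 14 differences in these lists were as follows. NANOG and PRDM14, pluripotency factors, differed by -8.18 ± 4.83 and -6.51 ± 2.94 (adjusted p = 0.405 and 0.286). FOXD3 and TFAP2B, factors of the neural crest, differed by -3.48 ± 1.64 and 3.37 ± 0.87 (0.306 and 0.105). KRT5, a basal keratin, and OVOL2, an epithelial factor, differed by 4.18 ± 2.25 and -1.45 ± 0.39 (0.363 and 0.117). None of these passed, and by line NANOG differed by -20.0 for Shef3, -3.19 for H14 and -1.35 for Shef1. VGLL1 and ERVW-1, both known from trophoblast, differed by 4.30 ± 2.57 and -2.34 ± 0.92 (0.411 and 0.236). DCN and MEOX1, known from mesenchyme, differed by 2.17 ± 0.96 and 1.95 ± 0.61 (0.280 and 0.158). In the order Shef3, H14 and Shef1, KRT5 differed by 5.17, 8.35 and -0.99, and FOXD3 by -7.11, -3.56 and 0.24. DCN differed by 4.55, 1.97 and -0.03, and VGLL1 by 5.84, 6.25 and 0.80. NANOG, PRDM14, TFAP2B, OVOL2, ERVW-1 and MEOX1 each had the same sign in every line. The part of these cell types in the DLX values was not tested.

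**Figure D4:**
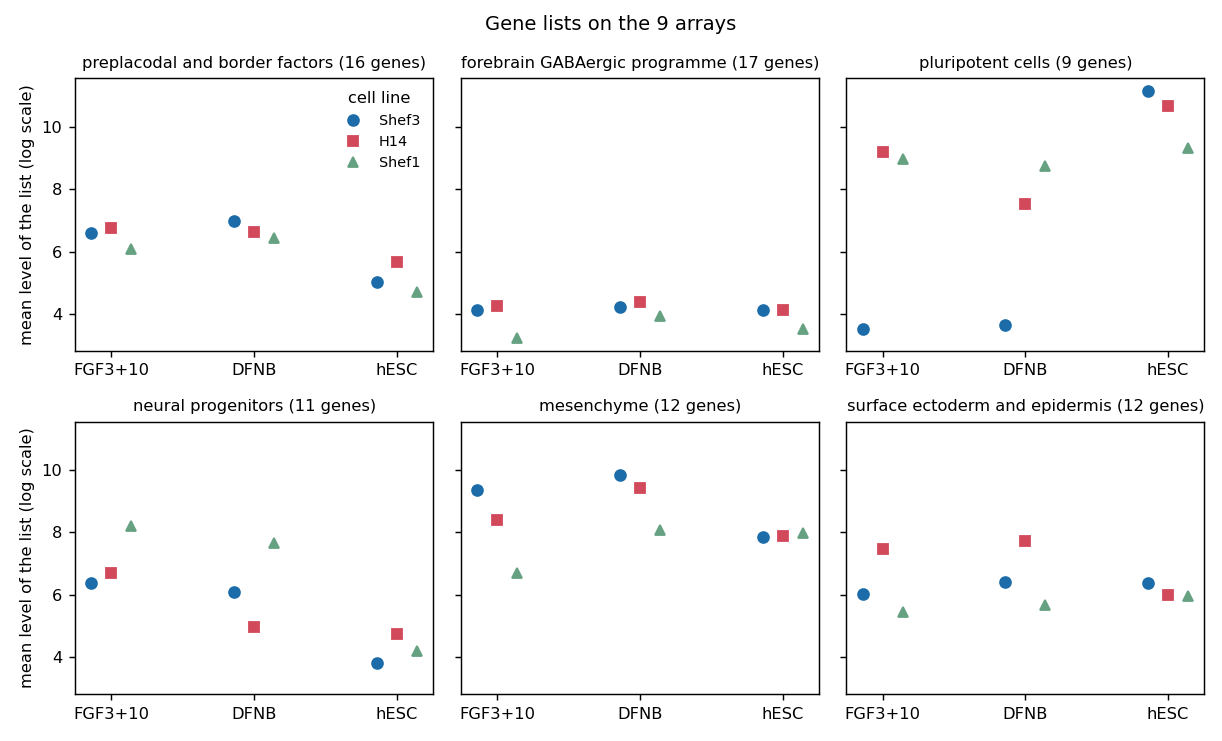
Mean level of 6 gene lists (vertical axis, deposited log scale) on each array of the FGF3+10, DFNB and hESC groups, with 1 point per cell line. The preplacodal and border list is higher on all day 14 arrays, from 6.10 to 6.98, against 4.72 to 5.68 in hESC, and the pluripotency list at day 14 is far below hESC in Shef3 and close to it in Shef1.

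The genes most like each member over the 9 arrays were sought among 12366 genes at level 4 or above on 3 or more arrays. The arrays share lines and fall into day 0 and day 14, so a high Pearson r is a description. The genes named here and below were picked on these same arrays. Their differences, order of lines and p-values therefore follow in part from the choice and are no separate test. DLX5 was closest to EMX2, a homeobox gene of the forebrain (r = 0.951), then to HOMEZ (0.946) and INAFM2 (0.943). EMX2 averaged 5.62 in FGF3+10 and 5.68 in DFNB, against 2.83 in hESC, and rose in all 3 lines (adjusted p = 0.0487 at day 14). DLX6 was closest to HOMEZ (0.945), RNF145 (0.940) and PLEKHG1 (0.939), so HOMEZ appeared for both genes of the pair.

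DLX2 was closest to SIM2, a bHLH-PAS factor (0.975), PDGFC, a growth factor (0.967), and SMPDL3A (0.966). Shef3, H14 and Shef1 differed from hESC by 2.42, 5.0 and -0.58 in SIM2, the same order of lines as in DLX2. DLX3 was closest to CLDN4, a tight junction protein of epithelia (0.970), LTBP1 (0.963) and NKX2-3 (0.962), and CLDN4 differed by 1.64, 3.74 and 0.55. DLX1 was closest to ACAA1 (0.927), SVIL (0.871) and CAPS (0.869), and DLX4 to REL (0.973), SOS1 (0.960) and ANP32A (0.952). The genes nearest to DLX1 and DLX4 had day 14 adjusted p from 0.643 to 0.982.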

How the data were processed

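Total RNA (200 ng, 3' IVT amplification and biotin, per the labels' protocols) from 9 cultures was hybridised to Affymetrix arrays. The deposited log values, taken as log2, have the same median on every array. No source used here gives the background correction, probe summary, software or log base. Arrays have no read depth, and their number limits the precision.

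Of 54675 probe sets, 62 were controls, 41091 had 1 gene symbol, 1801 several and 11721 none. Symbols came from the platform annotation and were updated through Entrez identifiers (41037 matched). A gene was represented by its brightest probe set, by mean over the arrays. The comparisons used limma 3.58.1 under R 4.3.3 (lmFit, eBayes, a mean per group, 1 spread over all arrays), with Benjamini-Hochberg adjustment over all 19775 genes and a threshold of 0.05. The fit was tested on simulated data, drawn without line effects and with changes in DFNB against hESC only. Pairing by line and the day 14 mean were thus not covered. Day 14 is the mean of both day 14 groups, whose arrays share lines. The line pairs the arrays by its label: deviations from group means correlated within lines at 0.0861 to 0.338 between DFNB and hESC, 0.181 to 0.283 between FGF3+10 and hESC, and 0.331 to 0.713 between FGF3+10 and DFNB. The model without the block is the main one.

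Alternatives were the line as block, quantile normalisation, values below 4 set to 4, genes at 4 or above on 3 arrays, the mean of probe sets, array weights, and leaving out lines or arrays. Members and lists were chosen with earlier results of these data known. Named were all members, the 3 genes most correlated with each, and of each list up to 4 called genes, or else the 2 with the largest day 14 difference. GAD1, GAD2 and DLX6-AS1 were named in addition, after their values were seen.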

Additional observations from a re-analysis of the deposited data

Results flagged for a closer look

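DLX1 and DLX4 moved in opposite directions in different cell lines, and the difference between lines was not tested. For DLX1 both media lay below hESC in Shef1, by a mean log2 difference of -2.62, while both lay above it in Shef3 (1.12) and H14 (2.49). That exact pattern, with these lines in these directions, held for 2.85% of all genes. For DLX4 both media lay below hESC in Shef3 (-0.86) and above it in Shef1 (0.86), at levels between 2.94 and 4.65. The rule that flagged both genes asks for any line higher in both media and any other lower in both. It held for 41.3% of all genes, so neither gene stands out by it.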

How the results depend on the processing

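The count of DLX members called against hESC moved from 0 in the model without a block to 1 with the line as replicate block, in both FGF3+10 and DFNB, and to 2 with array weights in both. At day 14 the count of 2 stayed 2 with the block and after quantile normalisation and was 3 with array weights. It became 1 with genes at level 4 or above only, where DLX6 was not tested, 1 with the mean of probe sets and 0 with values below 4 set to 4. Leaving out a line or an array gave 0 to 2 calls at day 14 and 0 in the other comparisons. Over all probe sets the 1 call at day 14 became 2 with the block and 0 with values below 4 set to 4. Between FGF3+10 and DFNB, and between lines, 0 members passed under the settings run for them. DLX2 passed at day 14 (3.06, adjusted p = 0.0281) and in DFNB (3.19, 0.0334) with array weights only.

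Among 424 recomputed member values 32 changed sign, 25 of them of DLX1 or DLX4, and no value that had passed. With the mean of probe sets DLX4 was 0.48 against hESC in DFNB and -0.12 between FGF3+10 and DFNB, and DLX1 was -0.26 at day 14. With values below 4 set to 4, DLX1 was 0.076 in FGF3+10, DLX3 was 0.18 between FGF3+10 and DFNB, and DLX4 was -0.0098 at day 14. With array weights DLX1 was 0.84 in FGF3+10. Leaving out arrays gave ranges of -0.24 to 2.15 (DLX1) and -0.55 to 0.18 (DLX4) in DFNB, and of -1.26 to 1.46 and -0.19 to 0.90 in FGF3+10. At day 14 they were -0.75 to 1.81 and -0.35 to 0.54. Between FGF3+10 and DFNB they were -1.08 to 0.062 (DLX2), -2.52 to 0.50 (DLX3), -0.25 to 1.10 (DLX5) and -0.085 to 1.23 (DLX6). The cause was not tested, except that fits without arrays have fewer of them.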
